A study of Mus musculus with 309 samples.

Results

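Skeletal muscle genes were followed through 309 mouse mammary tumours as 43 listed symbols of the 55291 in the estimated count table, and all 43 were found. The list holds 17 genes of the thin and thick filaments, 9 of the Z-disc, titin and the membrane anchors, 10 of excitation and calcium release, 6 of energy supply and 1 transcription factor. For contrast between fibre types, 13 of the genes were counted as fast and 6 as slow, and the other 24 as neither. The tumours came from 24 models, which the series title places under triple-negative breast cancer, and frozen tumours had been homogenised for polyA RNA sequencing. Trametinib, a MEK inhibitor, had been given to 65 tumours of 22 models, and erlotinib, an EGFR inhibitor, to 66 of 22 models. Carboplatin plus paclitaxel, a DNA-damaging and a microtubule-binding drug and called chemotherapy here, had been given to 66 tumours of 22 models. The checkpoint antibodies anti-PD1 and anti-CTLA4, which release T cells from inhibition, had been given to 48 tumours of 16 models. Untreated tumours numbered 64 from 18 models. Model and treatment together define 100 groups, 92 of them with 3 tumours. The labels name each model but give no strain, age, dose, time or tumour site, and nothing in them says how much tissue around a tumour was taken with it.

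Skeletal muscle fibres are long fused cells whose sarcomeres shorten when myosin pulls on actin. A nerve signal opens acetylcholine receptors, the membrane is depolarised, and calcium released from an internal store frees the thin filament for myosin. Fast fibres use the IIb, IIx and IIa myosins with fast troponins and a fast calcium pump, and slow fibres use the slow myosin with its own light chains and troponins. Mammary tumours are not muscle, but fat pad and skin lie close to muscle of the body wall, and mouse skin has a thin muscle layer of its own.

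Many of these genes share short promoter motifs, and 4 promoters are shown, chosen after the levels of their genes were seen. Levels of Atp2a1, Ckm and Acta1 followed the other members closely over the tumours, and those of Eno3 did not. Each sequence is the 250 bases before the transcription start in RefSeq (GRCm38.p6), read 5′ to 3′ on the gene's strand. They lie at chr7:19410844-19411093 on the plus strand for Ckm, chr8:123894776-123895025 on the minus strand for Acta1, chr7:126463074-126463323 on the minus strand for Atp2a1 and chr11:70656926-70657175 on the plus strand for Eno3. Capitals mark the E-box CAGCTG, the CArG box and TATAAA, each searched on both strands.
Ckm: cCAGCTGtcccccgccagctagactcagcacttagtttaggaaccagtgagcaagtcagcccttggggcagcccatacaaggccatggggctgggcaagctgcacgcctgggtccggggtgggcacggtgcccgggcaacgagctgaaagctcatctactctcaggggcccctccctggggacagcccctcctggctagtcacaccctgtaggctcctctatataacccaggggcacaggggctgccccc
Acta1: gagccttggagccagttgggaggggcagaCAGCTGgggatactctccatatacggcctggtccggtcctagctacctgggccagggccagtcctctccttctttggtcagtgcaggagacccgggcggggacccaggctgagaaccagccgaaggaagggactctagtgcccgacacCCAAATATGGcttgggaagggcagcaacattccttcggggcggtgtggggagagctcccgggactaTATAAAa
Atp2a1: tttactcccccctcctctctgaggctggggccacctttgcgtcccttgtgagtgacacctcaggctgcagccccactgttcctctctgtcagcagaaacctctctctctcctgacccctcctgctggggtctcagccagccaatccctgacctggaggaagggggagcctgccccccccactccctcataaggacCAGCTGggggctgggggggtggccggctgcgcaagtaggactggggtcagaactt
Eno3: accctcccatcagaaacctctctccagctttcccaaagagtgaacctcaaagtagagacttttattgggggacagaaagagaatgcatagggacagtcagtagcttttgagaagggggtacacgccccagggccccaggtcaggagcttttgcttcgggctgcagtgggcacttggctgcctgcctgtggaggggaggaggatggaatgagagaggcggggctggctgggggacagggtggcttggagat
CAGCTG, a form of the CANNTG E-box that muscle regulatory factors bind, stood in the Ckm, Acta1 and Atp2a1 windows. Acta1 also held a CArG box, the site of serum response factor, and TATAAA. The Eno3 window held none of the marked motifs, although it held the wider CANNTG. Some genes with lower correlations also had CAGCTG, such as Chrna1, Tnni1 and Mb, with r of 0.58, 0.71 and 0.79 to the other members. Of 43 members, 34 were matched to a promoter in the table, and 17 of these 34 (50%) held CAGCTG, against 4271 of 32851 promoters in the table. The wider CANNTG, which includes CAGCTG, was in 29 of 34 members and 66.2% of promoters. The MEF2 core (CTA and TAG with 4 bases of any kind between them) was in 3 of 34 members and 3.20% of promoters, TATAAA in 7 of 34 and 12.4%, and the CArG box in 4 of 34 and 1.47%. These comparisons count members as genes but the rest as promoters, of which a gene can have more than 1. Over 27025 genes the shares were 14.7% for CAGCTG, 69.3% for CANNTG, 3.70% for the MEF2 core, 14.3% for TATAAA and 1.62% for the CArG box. A match is letters in a window and does not show binding.

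Muscle transcripts were present at very different levels in tumours that share a label. The summed CPM (counts of a library relative to its total, comparable between tumours) of the 43 genes ran from 20.3 to 26429 over the 309 tumours, with a median of 252. In 73 tumours the sum was at least 1000 CPM, and in 82 it was below 100 CPM. All 43 genes had at least 1 count in 117 tumours. In such bulk samples fewer muscle cells and less RNA per cell cannot be told apart. Medians were 337 CPM with trametinib, 232 with erlotinib, 321 with chemotherapy, 107 with the antibodies and 289 in untreated tumours. The highest sums were 21572 CPM with trametinib, 26429 with erlotinib, 17266 with chemotherapy, 1282 with the antibodies and 12662 in untreated tumours. The antibody arm was therefore the one without tumours above 1282 CPM, while the lowest tumours of all 5 arms lay between 20.3 and 26.3 CPM. The arms do not hold the same models, so these medians and highest sums are not matched by model. KPB25L and KPB25L-UV, for example, had no antibody tumours.

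**Figure D1:**
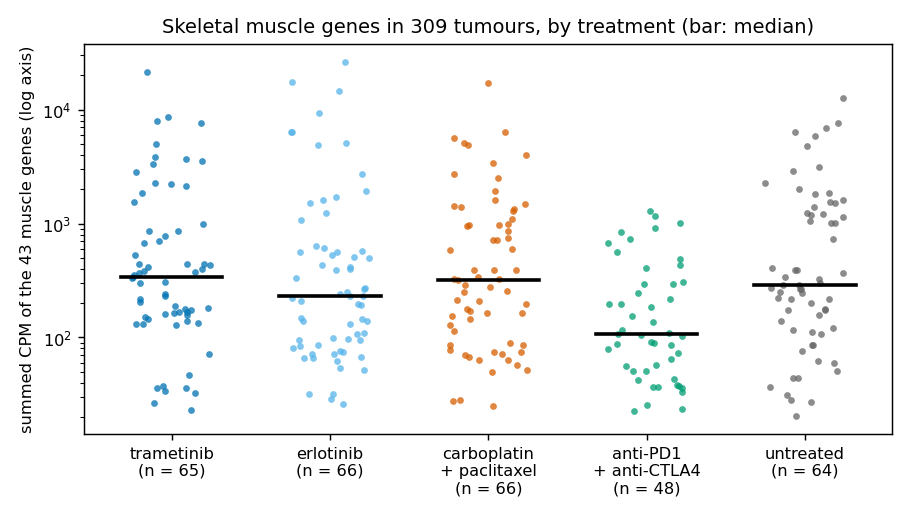
Summed CPM of the 43 muscle genes in each of 309 tumours (log axis) by treatment; each point is 1 tumour and the bar is the median. Medians range from 107 with the antibodies to 337 with trametinib, and points in every arm spread over more than 10-fold.

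Spread within a group of equal model and treatment was wide. Over the 98 groups with more than 1 tumour, the highest sum was a median of 4.25-fold above the lowest, and the ratio ranged from 1.09 to 507. In 33 groups it exceeded 10-fold and in 28 it stayed under 2-fold. Of the variance in the members' mean log2 CPM, 65.5% lay between groups and 34.5% within groups. Depth was not the same in all arms: median totals were 39.3 M counts (M, mega) with trametinib, 34.3 M with erlotinib, 103 M with chemotherapy, 113 M with the antibodies and 76.9 M in untreated tumours. Running library numbers, whose meaning the labels do not give, also differed between arms, with a median of 4868.5 for chemotherapy and 4353.5 for untreated tumours, for example.

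The 10 tumours highest in muscle genes came from 4 of the 5 arms. Of these, 4 had been given erlotinib: MMTV-Neu replicate 2 at 26429 CPM, KPB25L-UV replicate 3 at 17582, KPB1-B replicate 2 at 14637.5 and KPB25L replicate 3 at 9318. Another 3 had been given trametinib, namely 2224 replicate 1 at 21572 CPM, MMTV-PyMT replicate 2 at 8635 and 9263 replicate 3 at 7961. KPB1-A replicate 1 with chemotherapy reached 17266 CPM, and the untreated tumours KPB25L replicate 1 and 2208 replicate 2 reached 12662 and 7629. In MMTV-Neu the other 14 tumours held between 23.0 and 495 CPM, with a median of 46.5. Its erlotinib replicate 2 also held 3270 CPM of a 12-gene adipocyte list, against 29.4 to 2236 in the other 14 tumours. A list of 9 Schwann cell genes was at 102 CPM in that tumour and at 334 to 1374 in the other 14. The part of neighbouring tissue in these levels was not tested.

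Filament genes made up most of the muscle signal. Over all tumours and without correction for gene length, the 17 filament genes held 56.5% of the members' counts, energy genes 15.8%, excitation and calcium genes 15.3%, and Z-disc and titin genes 12.3%. Acta1, the actin of skeletal muscle (chromosome 8, 123891769 to 123894751, mm10), held 17.2% by itself. Myh4, the IIb myosin of the fastest fibres, held 11.6%, the fast calcium pump gene Atp2a1 held 9.34%, and Ckm, the muscle creatine kinase, held 6.34%. Per kilobase of exon the highest median level was that of Acta1, at 26.1 CPM per kb, ahead of Eno3, the muscle enolase, at 17.5. The fast light chain Mylpf followed at 6.84 CPM per kb, the fast troponin T Tnnt3 at 6.15 and the fast troponin C Tnnc2 at 5.67. The lowest medians per kilobase were 0.0044 for Myl3 and 0.0061 for Myh7, a light chain and the heavy chain of slow myosin. Acta1 reached 1 CPM in 267 tumours, Myh7 in 73 and Myl3 in 30.

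Genes of the Z-disc and of the membrane systems covered a wide range of levels. Ttn, the giant spring of the sarcomere, had a median of 12.7 CPM and a highest value of 1091, and Neb, the ruler of the thin filament, 4.28 and 511. Per kilobase of exon the medians were 0.11 CPM per kb for Ttn, 0.16 for Neb and 2.12 for Tcap. Tcap, which caps titin, had a median of 2.01 CPM and Myot, a Z-disc protein, 0.82. Among calcium release genes, the channel gene Ryr1 had a median of 6.35 CPM, the calcium store protein Casq1 2.04 and the voltage sensor Cacna1s 1.06. Pvalb, a calcium buffer of fast fibres, had a median of 1.05 CPM and a highest value of 675. Myf6, the one transcription factor and a member of the MyoD family, had a median of 0.18 CPM and a highest value of 16.5.

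Member levels varied together from tumour to tumour. The Pearson correlation of a member's log2 CPM with the mean of the other 42, over 309 tumours that share models and treatments, had a median of 0.93 and was at least 0.9 for 26 members. It was highest for Atp2a1 at 0.98 and lowest for Chrnd, the delta subunit of the acetylcholine receptor, at 0.51. With group means removed the median was 0.93 as well, taken between tumours of equal label. Slow genes followed less closely, with a median of 0.76 and at most 0.82 for the slow troponin T Tnnt1, whereas the lowest value of a fast gene was 0.89. Beyond the list, the genes closest in pattern among 14407 compared were Eef1a2 at 0.98, an elongation factor of muscle and nerve, and Myom2 at 0.98, which ties myosin at the M-band. Hjv and Art1 had 0.97 each, as did Mypn, which binds at the Z-disc. Lmod3, Smpx, Klhl41 and Smyd1 had values of 0.97 to 0.96, and Klhl31 had 0.95. A list of 44 other skeletal muscle genes correlated at 0.99 with the members, 16 genes of muscle stem cells and developing muscle at 0.71 and 12 heart muscle genes at 0.71. In at least 50% of the 309 tumours the defining genes Myf5 and Calcr of the stem cell list and Myl7, Nppa and Nkx2-5 of the heart list had no counts, and neither had Flg, Krt77, Lce1a1 and Calm4 of the 10 skin keratinocyte genes. Over all tumours the correlation with the members was 0.49 for adipocytes, 0.46 for smooth muscle and pericytes, 0.16 for Schwann cells and 0.13 for keratinocytes. With group means removed these values were 0.60, 0.62, 0.44 and 0.14, against 0.75 for stem and developing muscle and 0.71 for heart muscle.

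The summed level of the 13 fast fibre genes exceeded that of the 6 slow ones in every tumour. Fast genes held 49.7% of all member counts and slow genes 1.70%. The log2 ratio of summed fast to summed slow CPM, each with 0.1 added, had a median of 4.24 and ran from 0.67 to 9.29. Without myosin heavy chains its median was 3.87. The median log2 CPM of the fast genes minus that of the slow genes, which does not depend on their numbers, had a median of 3.51 and ran from -0.76 to 8.65. Tumours rich in muscle transcripts had the higher ratios: the correlation of the ratio with the log2 sum was 0.60 over 309 tumours, a description, since fast genes dominate that sum. In the 73 tumours with at least 1000 CPM the 4 heavy chains could be weighed per kilobase. Myh4 held a median of 66.2% of them (13.7 to 89.7%), the IIx chain Myh1 19.4%, the IIa chain Myh2 9.01% and slow Myh7 2.01% (0 to 25.8%). Myh4 was the highest of the 4 in 67 of these tumours and Myh1 in the other 6.

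**Figure D2:**
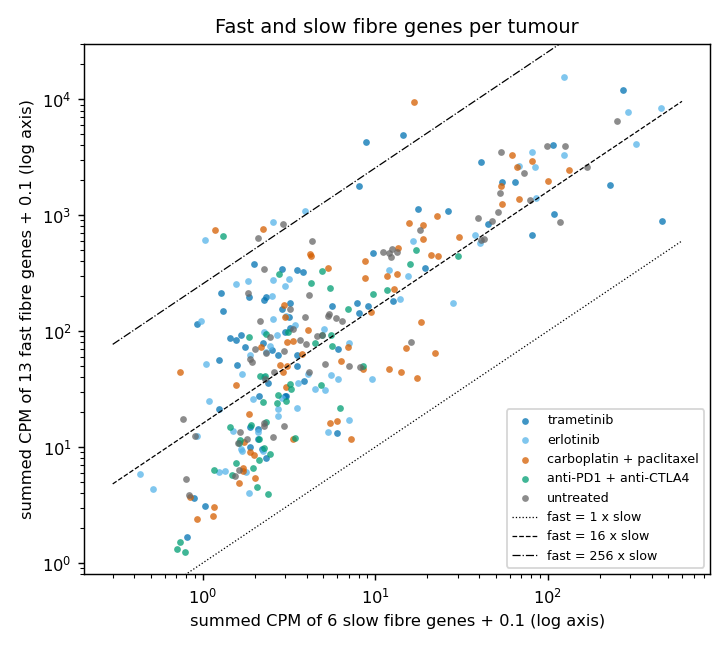
Summed CPM of 13 fast against 6 slow fibre genes in 309 tumours (log axes, 0.1 added), coloured by treatment; the lowest line marks equal sums and the other lines mark fixed ratios of fast to slow. Every tumour lies above the line of equal sums.

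Single tumours with much muscle signal differed in fibre type. KPB1-A replicate 1 with chemotherapy held 9514 CPM of fast genes and 16.7 of slow genes, a log2 ratio of 9.14. MMTV-PyMT replicate 2 with trametinib held 4871 CPM of fast and 14.3 of slow genes, with a ratio of 8.40. By contrast KPB25L-UV replicate 3 with erlotinib held 8416 CPM of fast and 452 of slow genes, and KPB25L replicate 3 with erlotinib 4076 and 323. Correlations between pairs of fast genes had a median of 0.90, between slow genes 0.74 and between a fast and a slow gene 0.69. These values belong to single tumours, and a group of 3 alone does not tell a fibre type of a model from that of a tumour. Over all tumours, 30.7% of the variance of the ratio lay between models and 41.1% within groups. The median ratio was 6.96 over 15 MMTV-PyMT tumours and 5.80 over 15 KPB1-A tumours. It was 4.10 in KPB25L-UV and 4.63 in KPB25L, against 4.24 over all tumours.

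For a few members the level differed mostly between models. The share of variance in log2 CPM between models was 78.1% for Chrnd and 62.6% for Chrna1, the alpha subunit of the same receptor. It was 55.7% for Ldb3, a Z-disc protein, 54.7% for Eno3 and 54.0% for Tnni1, the slow troponin I, against 28.1% for Ckm. Chrnd (chromosome 1, 87190607 to 87200070, mm10) had a median of 53.8 CPM over 13 T11 tumours and 46.7 over 12 T11-APOBEC tumours, while no other model had a median above 3.10 CPM. Eno3 had medians of 141 CPM in T11, 132 in T12, 131 in E0771 and 128 in T11-APOBEC, and 5.13 in MMTV-Neu, and it was above 1 CPM in all 309 tumours. Ldb3 was highest in MMTV-PyMT, with a median of 45.9 CPM, and lowest in p53RB-626 at 0.34. Among untreated tumours of the 16 models with at least 3, edgeR's quasi-likelihood F-test found 42 of 43 members to differ between models at a Benjamini-Hochberg adjusted p under 0.05, where 98.9% of all genes did. As nearly all genes were called, this count does not set the members apart. Acta1 was not called, with an adjusted p of 0.0523.

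**Figure D3:**
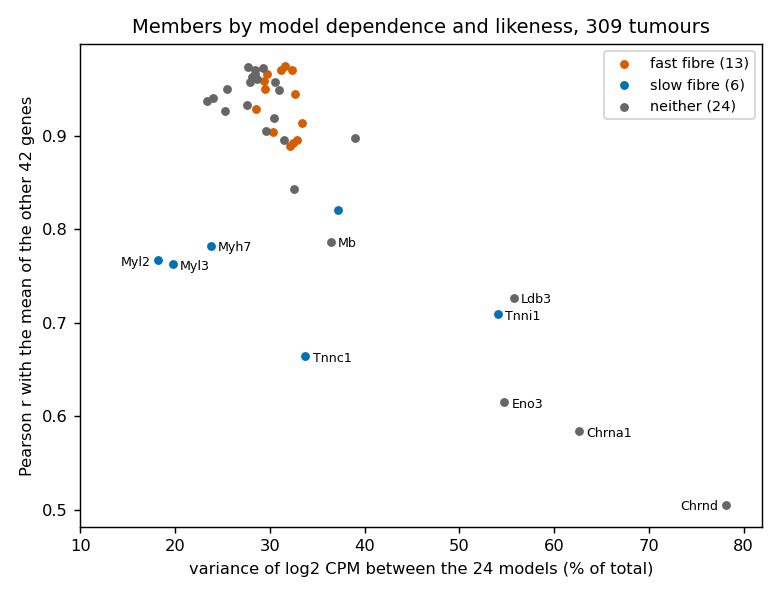
Each of the 43 genes by the share of its log2 CPM variance that lies between the 24 models (x axis, percent) and its Pearson r with the mean of the other 42 genes (y axis), over 309 tumours, coloured by fibre type. An r of at least 0.9 was found for 26 genes, and Chrnd lies furthest from them at 78.1% and 0.51.

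The 2 receptor subunits moved in opposite directions with trametinib in the models where Chrnd was high. In T11, Chrnd had 16.7, 14.0 and 10.6 CPM with trametinib, against 24.6, 67.0, 41.0 and 56.5 CPM untreated. In T11-APOBEC it had 9.33, 14.6 and 10.0 CPM with trametinib, against 48.2, 45.2 and 43.8 CPM untreated. All treated tumours lay below all untreated ones in both models. The log2 fold changes were -1.78 ± 0.29 (SE, adjusted p = 0.000867, edgeR) in T11 and -2.05 ± 0.25 (SE, adjusted p = 0.000209) in T11-APOBEC. Chrna1 went the other way. In T11 it had 21.2, 25.8 and 16.4 CPM with trametinib, against 7.83, 4.26, 3.55 and 4.64 CPM untreated, higher by 2.03 ± 0.25 on the log2 scale (SE, adjusted p = 0.000154, edgeR). In T11-APOBEC it had 11.5, 9.27 and 10.2 CPM with trametinib, against 3.76, 2.34 and 1.68 CPM untreated, higher by 1.98 ± 0.26 on the log2 scale (SE, adjusted p = 0.0004). Ckm in the same contrasts had log2 fold changes of 0.39 ± 1.36 in T11 (adjusted p = 0.848, edgeR) and -1.15 ± 1.33 in T11-APOBEC (adjusted p = 0.576). Leaving out each replicate number in turn kept both receptor genes called in both models, with a largest adjusted p of 0.0376. With erlotinib Chrnd stood at 62.8 to 64.2 CPM in T11 and 48.4 to 75.5 in T11-APOBEC, and its log2 fold changes of 0.50 and 0.44 did not pass the test (adjusted p = 0.533 and 0.301, edgeR). With chemotherapy Chrna1 was higher in T11, at 17.4 to 19.6 CPM (log2 fold change 1.77, adjusted p = 0.000422, edgeR), and had 2.31 to 3.50 CPM in T11-APOBEC. In the trametinib contrasts 2919 of 17094 genes were called lower and 2631 higher in T11. In T11-APOBEC 1889 of 16162 genes were called lower and 1951 higher. With chemotherapy in T11, 2366 of 17094 genes were called higher. The contrasts of the 2 receptor genes were singled out after their values were seen.

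Pooled over models, trametinib tumours had 3 members lower than untreated tumours and none higher. The comparison took 48 tumours with trametinib and 54 untreated tumours of 16 models, with the model as a factor; the 4 comparisons with untreated tumours share these controls. Of 41 members tested, Chrnd fell by 0.94 ± 0.24 on the log2 scale (SE, adjusted p = 0.0007, edgeR's quasi-likelihood test), Myh7 by 1.70 ± 0.63 (adjusted p = 0.0247), and Ano5, a membrane protein needed for muscle fibre repair, by 0.92 ± 0.37 (adjusted p = 0.0402). That is 3 of 41, where 21.0% of all genes were called lower. The median log2 fold change of the members was -0.46 ± 0.38 (median SE), and that of all genes -0.01. Acta1 had -0.77, Ckm -0.84, Myh4 -1.17 and Ttn -0.38, none past the test. Summed CPM had a median of 354 with trametinib and 330.3 untreated, and was lower in 7 of 16 models. Averaging models equally gave a median difference of -0.46, which lay between -0.59 and -0.34 whichever tumour was left out. The fitted median moved more: it was -0.28 without the tumour highest in muscle genes, which was untreated, and -0.15, -0.85 and -0.45 without replicate 1, 2 or 3 of every group. The number of called members was 1 without that tumour and 0, 9 and 3 without those replicates.

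With erlotinib no member passed the test in 48 tumours against 54 untreated ones, where 9.98% of all genes did. None of the 42 members tested by edgeR had an unadjusted p under 0.05 either, and DESeq2 called 0 (1 at an unadjusted p under 0.05). Their median log2 fold change was 0.06 with a median SE of 0.56. When models were averaged equally on the log2 scale, the median difference was -0.74, and summed CPM was lower with erlotinib in 11 of 16 models. MMTV-Neu replicate 2 alone held 25.1% of the arm's summed CPM, and without the 5 tumours highest in muscle genes the fitted median was -0.30. The sign of that median changed with the tumours kept and with the method. It was -0.07 without the highest tumour and 0.65 without replicate 1 of every group, which left 30 treated and 38 untreated tumours. With all tumours it was -0.18 in DESeq2 and -0.65 in limma on the authors' normalized table. Acta1 had a median of 35.5 CPM with erlotinib and 67.3 CPM untreated.

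With chemotherapy 1 member rose, Chrna1, by 0.76 ± 0.24 on the log2 scale (SE, adjusted p = 0.0141, edgeR), where 15.5% of all genes were called higher. Its CPM had a median of 1.80 (0 to 19.6) in 48 treated tumours and 0.87 (0 to 14.5) in 54 untreated tumours, and it was higher in 10 of 16 models. The call was lost with 1 difference per model (adjusted p = 0.338, limma, with 0 of 18401 genes called). It was also lost without replicate 2 or 3 of every group (adjusted p = 0.0608 and 0.131, edgeR). Leaving out any 1 of the models C3-TAG, KPB1-A, KPB1-B and T11 lost it too (adjusted p at most 0.0649, edgeR). The median over 42 members was -0.66, but -0.13 without the 5 tumours highest in muscle genes, 4 of them untreated, and -0.02 without replicate 1 of every group, with Myh4 at -1.47 ± 0.59 (adjusted p = 0.0534) and Myh7 at -1.86 ± 0.78 (adjusted p = 0.0655). KPB1-A replicate 1 held 27.2% of the summed CPM of the treated arm, and in that model the arms did not overlap, at 1333 to 17266 CPM with chemotherapy and 158 to 269 CPM untreated. DESeq2 called 17 of 42 members, 16 of them lower, where it called 2325 of 18401 genes lower. The count of called members therefore depends on the tool.

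Tumours given anti-PD1 plus anti-CTLA4 had less of every member tested than untreated tumours. All 40 members that passed the filter were called lower, where 6.22% of all genes were. The comparison took 36 treated and 41 untreated tumours of 12 models. The median log2 fold change was -2.63, with a median SE of 0.40, against 0.00 for all genes. Myh4 was lowest, with a median of 1.35 CPM (0 to 182) in treated and 17.4 CPM (0.28 to 1238) in untreated tumours, and fell by 3.87 ± 0.65 on the log2 scale (SE, adjusted p = 1.7e-05). Ckm had 0.96 CPM (0.02 to 77.4) in treated and 9.14 CPM (0.08 to 576) in untreated tumours, at -3.50 ± 0.60 (adjusted p = 2.12e-05). Acta1 had 7.20 CPM (0.11 to 238) in treated and 59.9 CPM (0.33 to 1294) in untreated tumours, at -3.14 ± 0.55 (adjusted p = 3.3e-05). Ranges of the 2 arms overlapped for all 3 genes, and each was lower in 12 of 12 models. Atp2a1 fell by 3.61, Pvalb by 3.54 and the glycogen-targeting subunit Ppp1r3a by 3.57 on the log2 scale. Myf6 fell by 2.93, Ttn by 2.11 and Ryr1 by 1.94. The smallest falls were among genes with a large share of variance between models or of slow fibres: Tnni1 fell by 1.31, Chrna1 by 1.08, the slow troponin C Tnnc1 by 0.95 and Eno3 by 0.60 (adjusted p = 0.0442). The call of Eno3 was lost without replicate 1, 2 or 3 of every group, and that of Chrna1 without replicate 1 or 3. Chrnd fell by 2.85. Myh7, Myl2 and Myl3 were too low to be tested.

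**Figure D4:**
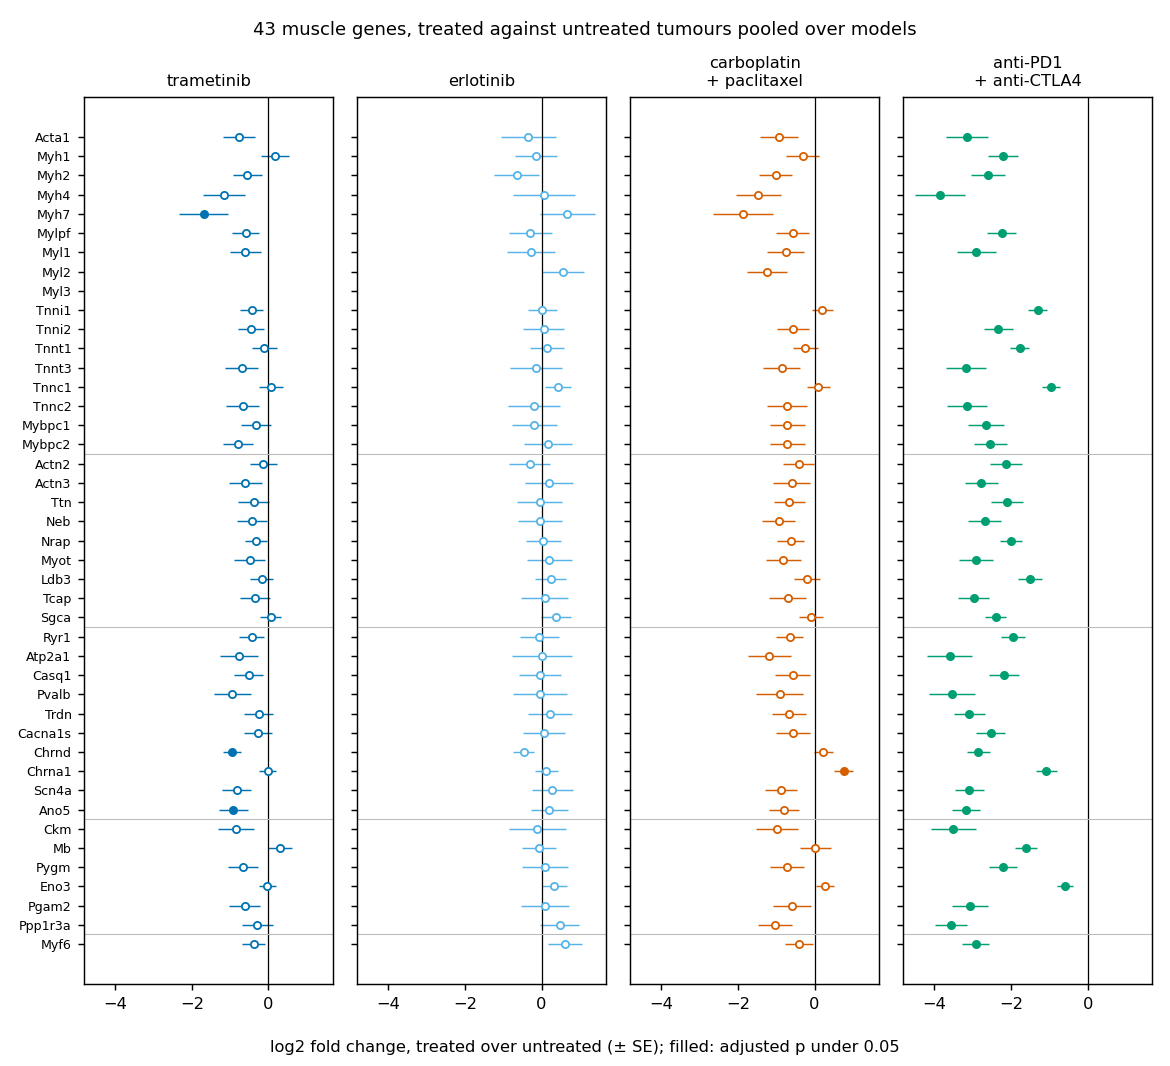
Log2 fold change of each muscle gene, treated over untreated, for the 4 treatments pooled over models (points, with SE bars; filled where the adjusted p is under 0.05; genes too low to test are blank; horizontal lines separate roles). All 40 points of the antibody panel are filled and below 0, against 3 filled with trametinib, 0 with erlotinib and 1 with chemotherapy.

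The antibody difference did not rest on 1 tumour, but its size varied between models. Summed CPM was lower in treated tumours in 12 of 12 models, with a mean log2 difference over models of -1.79 ± 1.34 (SD, n = 12). In 4 models the arms did not overlap, among them E0771 with a single untreated tumour. Leaving out any 1 of the 77 tumours kept the median model-averaged difference between -2.37 and -2.09, and all 43 members below 0. Leaving out any 1 model kept 37 to 40 members called. With 1 difference per model as the unit, limma called 0 of 40 members after adjustment. It called 0 of all 18371 genes in that fit, and 39 members had an unadjusted p under 0.05. Library numbers moved with the arms: in 10 of the 12 models the means of the arms lay more than 100 numbers apart. In the other 2 models, MMTV-Neu and MMTV-PyMT, 0 of 35 members were called, where 86 of 18066 genes were called lower. Of these members 7 had an unadjusted p under 0.05, 32 were below 0, and the median was -0.77. Members varied together (median r of 0.93 with group means removed), so counts of members are not counts of independent results. Fitted within each model, the median was -2.62 in MMTV-Neu and -0.42 in MMTV-PyMT, with 30 of 34 and 35 of 41 members below 0. Untreated sums in MMTV-Neu were low, at 31.4 to 62.3 CPM. The log2 differences of the summed CPM in MMTV-Neu and MMTV-PyMT were -0.22 and -0.63, against a mean of -2.07 in the 10 other models. Library number and treatment cannot be told apart in those 10. Adipocyte genes moved the same way, with 8 of 11 tested lower, as did 5 of 12 smooth muscle and pericyte genes and 4 of 9 stem and developing muscle genes. None of 6 keratinocyte or 7 Schwann cell genes that passed the filter was called lower. Summed adipocyte CPM had a median of 38.3 (10.7 to 617) in treated and 43.3 (8.38 to 1907) in untreated tumours. With the other treatments no adipocyte gene was called lower than untreated. Called higher were 7 of 12 with trametinib, where 3433 of 18014 genes were, 2 of 11 with erlotinib and 0 of 11 with chemotherapy. Of 11 smooth muscle and pericyte genes, 6 were called higher and 1 lower with trametinib, 2 lower with erlotinib and 1 higher with chemotherapy. The part of tissue taken with the tumour was not tested.

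Treatments were also compared directly. Antibody tumours had all 40 tested members lower than chemotherapy tumours of the same 16 models (48 tumours each), where 11.6% of all genes were called lower. The log2 fold changes ran from -3.02 to -0.63 with a median SE of 0.42. Summed CPM had a median of 107 (22.4 to 1282) with the antibodies and 255 (49.5 to 17266) with chemotherapy, and was lower in 10 of 16 models. In 7 models every antibody tumour lay below every chemotherapy tumour, and in 2 models, 9263 and p53RB-626, above. Without replicate 3 of every group 14 members were called. With 1 difference per model limma called 0 of 40 members and 0 of all 18705 genes. In that fit 35 members had an unadjusted p under 0.05, and the members' median was -1.68. Library numbers of the arms lay more than 100 apart in 11 of the 16 models, where library number and treatment cannot be told apart. In the other 5 models 1 member was called, where 333 of 18288 genes were called lower. There 38 of 40 members were below 0, and their median was -0.90. Because members varied together, these counts are not independent either. Trametinib against erlotinib gave 0 calls among 40 members by edgeR (1 at an unadjusted p under 0.05), where 26.5% of all genes were called. DESeq2 called 10 members higher, where it called 2564 of 16778 genes higher. The summed CPM was higher with trametinib in 16 of 22 models, with medians of 337 with trametinib and 232 with erlotinib.

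Within single models, most member calls came from a few contrasts. Over 60 contrasts of a treatment with untreated tumours in 16 models, 2459 member tests gave 105 calls higher and 241 lower, that is 346, where 12.6% of all gene tests were called. In 30 contrasts no member was called, and 6 contrasts with at least 30 called members held 227 of the calls. Without replicate 2 of every group the total was 56, and without replicate 1 it was 186.

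**Figure D5:**
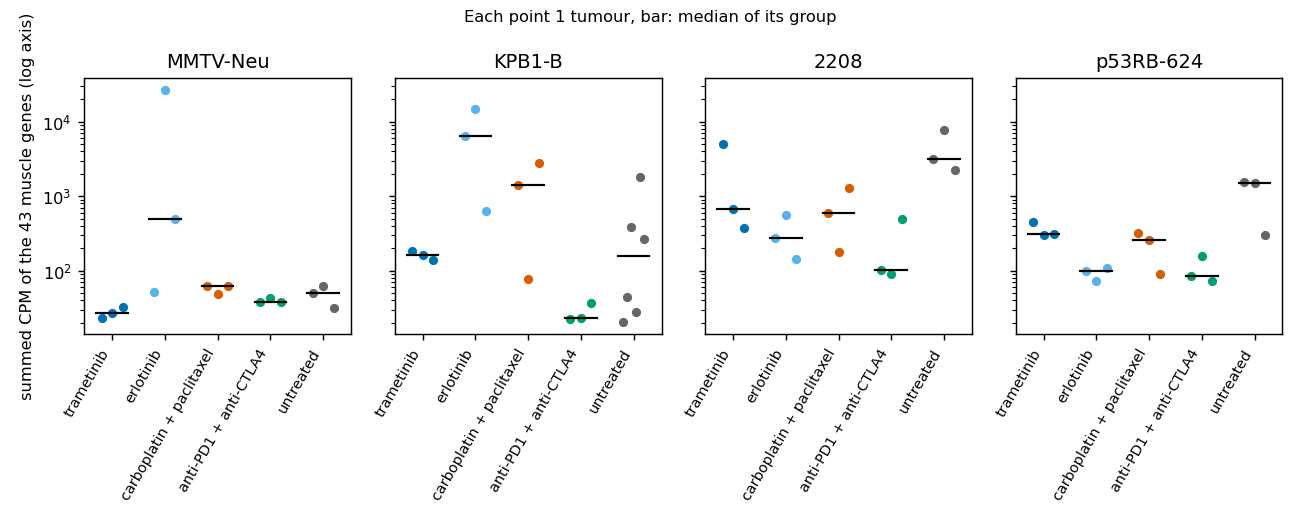
Summed CPM of the 43 muscle genes (log axis) in 4 models by treatment; each point is 1 tumour and the bar is the median of its group. In MMTV-Neu a single erlotinib tumour stands at 26429 CPM, and in 2208 the untreated tumours stand at 2264 to 7629.

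In 2208 tumours the antibodies and erlotinib had the most called members, and muscle signal was lower on average with the other treatments as well. Summed CPM was 103, 91.8 and 489 with the antibodies, against 3114, 7629 and 2264 untreated, and the arms did not overlap. Of 43 members 41 were called lower, where 4.92% of all genes were, with Ckm at -5.38 ± 1.37 (SE, adjusted p = 0.0293, edgeR). Without replicate 1, 2 or 3 of each group 2, 1 and 39 members were called, and their median log2 fold change was -3.89, -2.94 and -5.62, against -4.01 with all tumours. Summed CPM with erlotinib was 272, 565 and 145, also below all 3 untreated tumours, and 40 members were called lower, where 13.7% of all genes were. Without replicate 1, 2 or 3 of each group 19, 9 and 21 members were called with erlotinib, at medians of -3.72, -3.47 and -3.63, against -3.61 with all tumours. These 2 contrasts share the untreated tumours. Mean library numbers differed from untreated by 147 with the antibodies and by -480 with erlotinib. Library number and treatment therefore cannot be told apart in either contrast.

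In p53RB-624, 2 of the 3 untreated tumours stood far above all treated tumours, whichever the treatment. Summed CPM was 85.5, 156 and 72.8 with the antibodies and 99.1, 72.0 and 107 with erlotinib, against 1545, 1521 and 299 untreated. It was 324, 258 and 89 with chemotherapy and 446, 302 and 307 with trametinib. With those treatments 3 and 10 members were called lower, where 4 and 1184 of 18643 genes were. With the antibodies 40 of 42 members were called lower, where 4.68% of all genes were, and with erlotinib 34, where 1.93% were. Ckm fell by 6.15 ± 1.01 (SE, adjusted p = 0.00293, edgeR) with the antibodies and by 6.55 ± 1.15 (adjusted p = 0.0128) with erlotinib. Without replicate 1 of each group 11 members were called with the antibodies and 0 with erlotinib, without replicate 2 no member was called in either contrast, and without replicate 3, which is the low tumour among the untreated, 39 and 40 were. The median log2 fold changes stayed between -6.21 and -4.17 with the antibodies and between -6.47 and -4.04 with erlotinib, against -4.99 and -4.82 with all tumours. Mean library numbers differed from untreated by 583 with the antibodies and by 3 with erlotinib. With the antibodies, library number and treatment cannot be told apart in this model.

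In the other direction stood erlotinib in KPB1-B and MMTV-Neu. KPB1-B had sums of 6326, 14637.5 and 640 CPM with erlotinib, against 20.3 to 1829 in 6 untreated tumours, so that the arms overlapped. There 38 of 43 members were called higher, where 15.4% of all genes were, with Ckm at 4.74 ± 1.38 (SE, adjusted p = 0.0172, edgeR). Without replicate 1, 2 or 3 of each group 4, 6 and 24 were called, with medians of 3.73, 2.56 and 4.34, against 3.86 with all tumours. Mean library numbers of these KPB1-B arms differed by 807.5. Untreated KPB1-B replicates 4 to 6, nearest in library number to the erlotinib tumours, held 28, 1829 and 267 CPM. MMTV-Neu had 52.1, 26429 and 495 CPM with erlotinib, against 51.0, 62.3 and 31.4 untreated. The 34 members that passed the filter, which they could do through that tumour, were all called higher, where 24.4% of all genes were, with Ckm at 0.85, 1760.4 and 32.5 CPM with erlotinib against 1.88, 2.14 and 0.49 CPM untreated (log2 fold change 8.76 ± 2.02, adjusted p = 0.00445). The first erlotinib tumour lay among the untreated ones. Mean library numbers of these MMTV-Neu arms differed by 224, so library number and treatment cannot be told apart there. Without replicate 1, 2 or 3 of each group 38, 12 and 1 members were called, with medians of 9.21, 3.57 and 8.53, against 8.30 with all tumours. On the authors' normalized table, limma called 8, with a median of 4.30.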

How the data were processed

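PolyA RNA had been sequenced from 309 mammary tumours, and each group is a model with a treatment as titled; accession order gave replicate numbers. Per the submitters' processing notes, STAR, SAMtools, Picard and Salmon were used on mm10, with no version or setting stated. The authors deposited Salmon's estimated counts for 55291 symbols, of which 8.35% of values are not whole. Their second deposited table holds a normalized signal, which equals 1000 times the estimated count over the upper quartile of the nonzero values in its library (checked; largest relative deviation 5.2e-15). All 309 columns were joined to tumours by library name. Totals ran from 12.1 M to 226 M counts, so counting error limits only the rarest transcripts. The strandedness of the libraries is not given in the sources used here, so antisense reads cannot be told apart, and the adjacent myosin heavy chain genes, which are similar in sequence, may share reads. For 3 KPB25L-UV tumours with chemotherapy the library names begin with KPB25L; they were kept under their titles, and the chemotherapy result was also computed without them.

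Estimated counts were rounded. Genes with low counts were removed with filterByExpr, libraries were scaled by TMM, and edgeR 4.0.16 (R 4.3.3, limma 3.58.1) fitted a quasi-likelihood model with the model as a factor, over tumours of models with both arms. Contrasts within a model used all its tumours. Calls had a Benjamini-Hochberg adjusted p under 0.05 over all tested genes. The trametinib and erlotinib fits and the erlotinib contrast in MMTV-Neu were also run on simulated counts. Those had the same spread setting for every gene and no outlying tumours, so they do not cover the wide spread seen here. The F-test between models was not simulated. The p-values measure the spread between tumours and, in the pooled comparisons, treat tumours of 1 model as independent. CPM use TMM-scaled totals, and log2 CPM a prior count of 2. Sums and ratios are descriptions without a test. Gene positions are those of GENCODE on mm10. DESeq2 1.42.0 and the other alternatives are given in the closing section.

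The members, the fast and slow lists and the other lists were chosen with earlier results of these data known. Members always described were Acta1, Ckm, Myh4, Ttn, Myh7, Tnni1, Tnnt1, Eno3, Chrna1, Chrnd, Ano5 and Myf6. Added by rule were up to 6 called members a comparison, the 10 genes closest in pattern with a mean of at least 0.5 CPM, the 3 within-model contrasts with the most calls and the 10 tumours highest in muscle genes. The other within-model contrasts were added because at least 30 members were called in them. Further members are named for their role.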

Additional observations from a re-analysis of the deposited data

Results flagged for a closer look

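Of the 5 groups with 4 to 10 tumours, all untreated, 2 held a tumour far above the rest in the summed CPM of the 43 muscle genes. Chance marks about 5% of groups at this level only where values are normally distributed. Sums of CPM are skewed, with a median of 252 and a highest value of 26429 over all tumours, so that rate does not hold here. In each group 2 measures were tested. Among 9 untreated K14-TRT tumours the highest had 5883 CPM, where the group median was 121. Among 6 untreated KPB1-B tumours the highest had 1829 CPM, where the group median was 155.

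Some treatment contrasts moved in opposite directions between models with no overlap of the arms in either; the differences between models were not tested. With chemotherapy against untreated, the log2 difference of the summed CPM was 4.20 in KPB1-A and -2.87 in 2208. For trametinib against erlotinib it was 3.95 in 2224, 2.31 in T11-APOBEC, 1.92 in p53RB-624, 1.49 in 2153, 1.31 in p53RB-626, 1.13 in 2336 and 0.86 in 4T1, but -5.02 in MMTV-Neu, -4.61 in KPB1-B and -4.14 in KPB25L. For the antibodies against chemotherapy it was 0.80 in 9263 and 0.56 in p53RB-626, but -5.13 in C3-TAG, -4.97 in KPB1-A, -4.63 in KPB1-B, -3.15 in 2153, -2.43 in 2224, -1.13 in p53RB-426 and -0.55 in MMTV-Neu.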

How the results depend on the processing

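Both antibody comparisons had 35 to 43 called members under other scalings and filters, on the authors' normalized table, with DESeq2 and without the highest tumours. With 1 difference per model the antibodies had 0 calls against untreated and 0 against chemotherapy, where 0 of all genes were called in either fit. In models near in library number they had 0 and 1, where 86 of 18066 and 333 of 18288 genes were called lower. The number of called members lay between 35 and 38 against untreated when replicate 1, 2 or 3 was left out of every group, and between 14 and 41 against chemotherapy. The counts with few calls moved more. For trametinib they were 1 on the authors' table, 0 with 1 difference per model, 1 without the highest tumour, 8 without the 5 highest, 7 in near models and 8 with DESeq2, between 0 and 9 without a replicate number and between 1 and 7 without a model; the filter by the design matrix, added after seeing the data, gave 5. For erlotinib they were 1 on the authors' table and 1 without the 5 highest tumours. For chemotherapy they were 0 with 1 difference per model and 0 in near models, fits in which 0 of all genes were called. Called members numbered 0 in the label set and 17 with DESeq2. They lay between 0 and 2 without a replicate number and between 0 and 10 without a model. The older trended fit, also added later, gave 2. For trametinib against erlotinib they were 1 on the authors' table, 1 without the highest tumour, 3 without the 5 highest, 2 without MMTV-Neu and 10 with DESeq2, and between 0 and 2 without a model. Leaving out models was added after seeing the data. Calls over all within-model contrasts lay between 56 and 254 without a replicate number. Of the fold changes of named members that were called, recomputed 904 times in all, 780 values kept the call and 2 reversed, both in models near in library number: Tnni1 with the antibodies at 0.66 and Myf6 with the antibodies against chemotherapy at 0.17. The causes of these shifts were not tested. The fold changes of named members that had not been called were less stable in sign. Of 1399 values 176 had the opposite sign, 90 of them with erlotinib, 48 for trametinib against erlotinib, 32 with trametinib and 6 with chemotherapy; 32 gained the call, none of these with the opposite sign. Leaving out 1 model, for example, moved Ckm with erlotinib between -0.75 and 0.21. The median over the members with erlotinib lay between -0.72 and 0.65 over the alternatives. No paired analysis was possible because the labels carry no replicate numbers. Depth limits the slow genes Myh7, Myl2 and Myl3, and also Myf6 and Ppp1r3a, which were at 0 counts in 69 to 147 tumours. Ano5 was at 0 counts in 66 tumours.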
